A study of Mus musculus with 8 samples.

Results

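The Polycomb complex genes described here are 10 genes for subunits of Polycomb repressive complexes 1 and 2 (PRC1 and PRC2): Ezh2, Ezh1, Eed, Suz12, Jarid2, Mtf2, Rnf2, Ring1, Kdm2b and Pcgf6. They were chosen by symbol and are 10 of the 55292 features in the deposited table of raw read counts. Each symbol matched a single row, and all 10 were among the 17342 genes that passed the filter on low counts. The counts come from poly(A)-selected RNA of E14 mouse embryonic stem cells of strain 129/Ola, grown on gelatin with serum and leukaemia inhibitory factor. The wild type was untreated E14, and the knockout was untreated E14 lacking the long noncoding RNA lncSmad7 (lncSmad7-/-). The third group, called the Smad7-labelled knockout here, is lncSmad7-/- E14 labelled as transfected with Smad7, which encodes an inhibitory Smad of TGF-beta signalling, and its descriptions name 24 h. Each of these 3 groups had 2 libraries. Knockout cells that received lncSmad7 itself were not analysed here. The labels do not say whether the knockout is 1 clone or several, and none of the 6 libraries is labelled as a mock transfection, so Smad7 and the transfection itself cannot be told apart. Replicates are called biological with no word on separate cultures, and the p-values therefore reflect only how far these libraries spread.

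PRC2 places methyl groups on lysine 27 of histone H3. Its catalytic subunit is EZH2 or the related EZH1, which need EED and SUZ12 to work, while accessory subunits such as JARID2 and MTF2 guide the complex to CpG islands. PRC1 places ubiquitin on histone H2A through the RING proteins RNF2 (RING1B) and RING1, and its variant forms carry KDM2B, which binds unmethylated CpG islands, or PCGF6. In embryonic stem cells both complexes keep developmental regulators at low expression.

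Library totals ran from 13392941 to 20209760 counts, and the 2 lowest belonged to the Smad7-labelled knockout. Its libraries also had the most genes with a count, 26358 and 27359, against 24446 to 24849 in the others. Mitochondrial transcripts took 2.33% to 2.48% of its counts, against 1.37% to 1.58% elsewhere, and ribosomal protein genes 3.34% to 3.39%, against 4.49% to 5.2%. The part of these differences in the members' changes was not tested. The lncSmad7 row of the table held 237 and 221 counts in wild type, 140 and 105 in knockout cells, and 167 and 207 in the Smad7-labelled knockout, and it is not known here which part of the transcript was removed. Smad7 stood at 97.6 and 97.7 normalised CPM (read counts scaled to a common library total) in wild type, 75.5 and 69.6 in knockout cells, and 93.8 and 99.4 in the Smad7-labelled knockout. Since the lncSmad7 row also rose in the latter relative to the knockout (log2 fold change 0.79, adjusted p = 9.3e-09 in edgeR), they are named by their label. All 8 embryonic stem cell markers were detected in every library. Their summed levels were 4883 to 4954 CPM in wild type, 6139 to 6230 in the knockout and 3599 to 3624 in the Smad7-labelled knockout. The last of these, set against wild type, depends on the scaling. There the median log2 fold change of the markers was -0.41, beside 0.09 over all genes. With scaling by library size it was -0.016, beside 0.48.

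The promoters of the members are rich in CG dinucleotides. In the 250 bases before the annotated start, the 10 members held a median of 21.5 CG dinucleotides against 6.0 over 27025 RefSeq promoters (GRCm38.p6). The windows of Suz12, which fell in the knockout, and of Ezh1, which rose there, are shown because these genes had the greatest fall and the greatest rise among the members. Both are given 5′ to 3′ on the strand of the gene, with each CG in capitals. Suz12 is at chr11:79992856-79993105 on the plus strand, and Ezh1 at chr11:101226464-101226713 on the minus strand.
Suz12: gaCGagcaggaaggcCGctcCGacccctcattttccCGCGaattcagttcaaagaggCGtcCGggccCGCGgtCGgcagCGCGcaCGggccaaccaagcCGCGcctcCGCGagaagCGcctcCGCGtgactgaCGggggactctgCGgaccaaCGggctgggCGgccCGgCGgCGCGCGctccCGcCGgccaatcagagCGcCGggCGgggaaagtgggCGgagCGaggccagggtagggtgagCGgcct
Ezh1: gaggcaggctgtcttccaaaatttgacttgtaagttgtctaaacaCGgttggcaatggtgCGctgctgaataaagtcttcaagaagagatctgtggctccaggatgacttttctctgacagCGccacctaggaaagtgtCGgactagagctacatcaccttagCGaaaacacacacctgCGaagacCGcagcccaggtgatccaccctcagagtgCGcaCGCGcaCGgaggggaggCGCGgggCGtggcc
The Suz12 window held 37 CG dinucleotides and the Ezh1 window 14. An E2F motif, searched on both strands as TTTCCCGC, TTTGCCGC, TTTGGCGC or TTTCGCGC, occurred in 1.9% of all promoters and in 1 of the 10 members. That match was TTTCCCGC in Suz12, starting 219 bases before the start site. The E-box CACGTG occurred in 6.0% of all promoters and in 0 of the 10 members.

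In the knockout, transcripts of the core subunits Eed and Suz12 and of the RING subunit Rnf2 were lower than in wild type. The alternative catalytic subunit Ezh1 was higher, and the falls of Ezh2 and Ring1 were not called under every processing. All 10 members passed the threshold, an adjusted p of 0.05 in edgeR's quasi-likelihood test, with 3 higher and 7 lower. The background in that comparison was 67.7% of all tested genes called, 34.5% higher and 33.3% lower, and the members' count was not tested against it. The median log2 fold change of the members was -0.33, beside 0.02 over all genes tested. All 10 members had separate libraries between the groups, as did 82.5% of all genes.

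**Figure D1:**
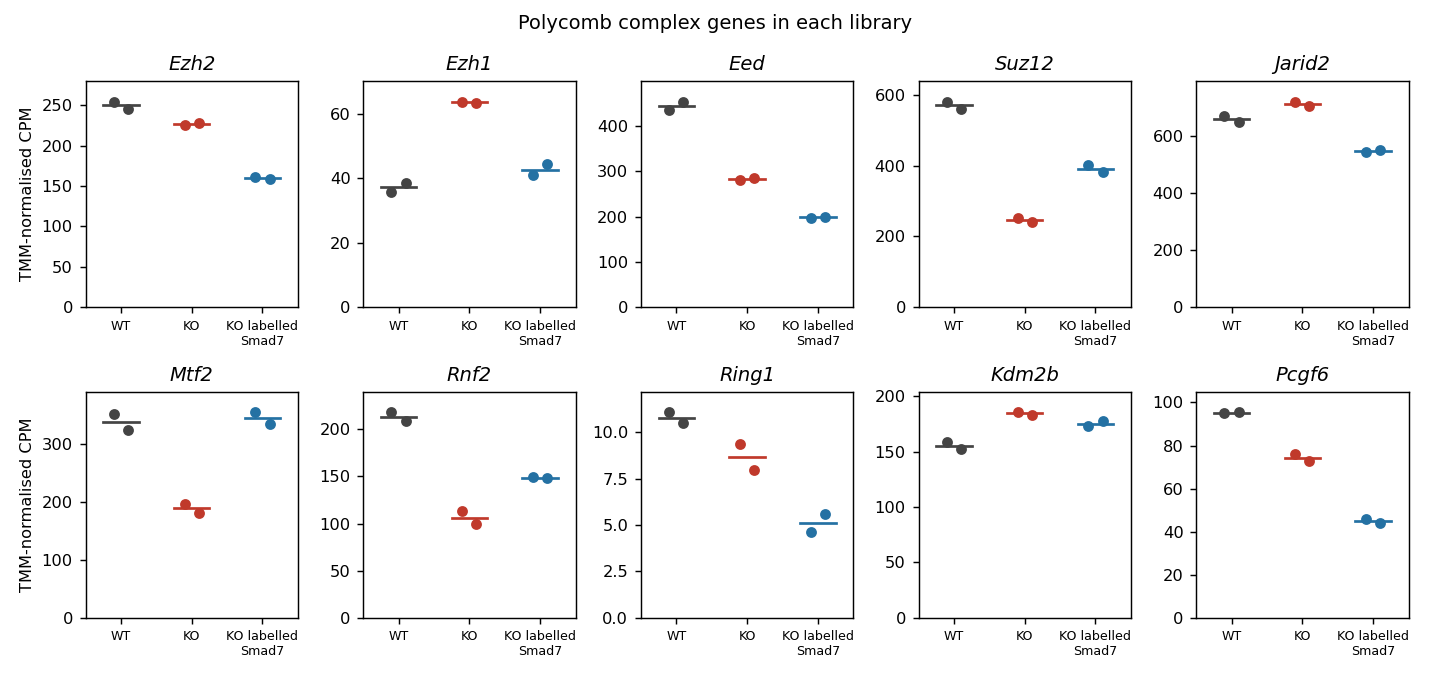
Normalised CPM of the 10 members in each library (points) with the group mean (bar), in wild type (WT), knockout (KO) and the Smad7-labelled knockout. Suz12, Mtf2 and Rnf2 are lowest in the knockout, whereas Ezh2, Eed, Jarid2, Ring1 and Pcgf6 are lowest in the Smad7-labelled knockout. With GC and length offsets Rnf2 is lowest in the Smad7-labelled knockout. Mtf2 then differs by a log2 fold change of 0.03 between the Smad7-labelled knockout and the knockout. With scaling by library size Jarid2 is 0.12 higher in the Smad7-labelled knockout than in wild type.

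Ezh2, the main methyltransferase of PRC2 in dividing cells (chr6:47530139-47595341, minus strand, GRCm38), measured 255 and 246 CPM in wild type, 226 and 228 in knockout cells, and 162 and 159 in the Smad7-labelled knockout. The 3 groups did not overlap, and the step between wild type and knockout was the smaller of the 2 steps. The log2 fold change was -0.14 ± 0.04 (SE) between knockout and wild type (adjusted p = 4.1e-04), which became 0.0029 with scaling by library size and -0.05 (adjusted p = 0.115) with offsets for GC content and length. Between the Smad7-labelled knockout and the knockout it was -0.50 ± 0.04 (adjusted p = 3.0e-25).

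Ezh1, the methyltransferase that takes the place of EZH2 mainly in non-dividing cells (chr11:101191115-101226463, minus strand), went the other way in the knockout. It measured 35.7 and 38.6 CPM in wild type, 63.9 and 63.4 in knockout cells, and 41.0 and 44.4 in the Smad7-labelled knockout. Both knockout libraries lay above all other libraries, and the other 2 groups were close to each other. Ezh1 rose 1.71-fold in the knockout (log2 fold change 0.77 ± 0.06, adjusted p = 5.8e-26) and was 1.49-fold lower in the Smad7-labelled knockout than in the knockout (-0.57 ± 0.06, adjusted p = 1.1e-17). Against wild type, those libraries were higher by 0.20 ± 0.06 (adjusted p = 2.6e-03), a call lost with DESeq2 (adjusted p = 0.205), with GC and length offsets (0.171), without wild-type replicate 1 (0.131) and without replicate 2 of the Smad7-labelled knockout (0.0801).

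The balance of the 2 methyltransferase transcripts differed between wild type and both knockout groups. Per kilobase of exon, which allows levels of different genes to be compared and does not depend on the scaling between libraries, Ezh2 exceeded Ezh1 by 7.94-fold and 7.09-fold in wild type, 3.94-fold and 4.0-fold in knockout cells, and 4.40-fold and 3.99-fold in the Smad7-labelled knockout. Ezh1 made up 11.2% and 12.4% of the Ezh1 and Ezh2 level in wild type, 20.3% and 20.0% in knockout cells, and 18.5% and 20.1% in the Smad7-labelled knockout. The wild-type ratios were separate from all others, and the ratios of the other 2 groups overlapped. With GC and length offsets the log2 ratio changed by -0.61 in the knockout, against -0.92 without. Ezh2 remained the higher of the pair in all 6 libraries.

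Eed, the subunit that binds trimethylated lysine 27 and stimulates the enzyme (chr7:89954654-89980983, minus strand), fell in steps. It stood at 436 and 454 CPM in wild type, 281 and 285 in knockout cells, and 197 and 198 in the Smad7-labelled knockout, with no overlap. The log2 fold change was -0.65 ± 0.04 between knockout and wild type (adjusted p = 3.9e-38) and -0.51 ± 0.04 for the second step (adjusted p = 8.8e-27), which was -0.37 with GC and length offsets. Across both steps Eed was 2.25-fold lower than in wild type (-1.17 ± 0.04, adjusted p = 3.1e-65).

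Suz12, the scaffold that holds the core and the accessory subunits together (chr11:79993106-80034123, plus strand), had the greatest fall of the members in the knockout in the TMM-scaled test. It measured 582 and 560 CPM in wild type, 251 and 242 in knockout cells, and 401 and 382 in the Smad7-labelled knockout. The 3 groups did not overlap, and the Smad7-labelled knockout lay between the other 2 groups. Suz12 fell by 1.21 ± 0.04 on the log2 scale in the knockout (adjusted p = 1.5e-67), or by 0.87 with GC and length offsets. It rose by 0.67 ± 0.04 from the knockout to the Smad7-labelled knockout (adjusted p = 1.2e-37), or by 0.32 with those offsets. Against wild type the difference was -0.54 ± 0.04 (adjusted p = 4.5e-31).

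The ratio of the 2 core subunits differed between groups at the RNA level. The log2 ratio of Suz12 to Eed per kilobase was 0.05 and -0.07 in wild type, -0.53 and -0.61 in knockout cells, and 0.65 and 0.58 in the Smad7-labelled knockout, with no overlap between groups. The log2 ratio of Suz12 to Ezh2 was 1.62 and 1.62, then 0.59 and 0.52, then 1.75 and 1.70, while that of Eed to Ezh2 was 1.58 and 1.69, then 1.12 and 1.13, then 1.09 and 1.12, in the same order of groups. Relative to Ezh2, Suz12 was low in the knockout, whereas Eed was low in the knockout and the Smad7-labelled knockout. With GC and length offsets the change in the knockout was -0.15 for Suz12 to Eed, against -0.56 without them, -0.82 for Suz12 to Ezh2, against -1.07, and -0.66 for Eed to Ezh2, against -0.51. From the knockout to the Smad7-labelled knockout the change of Suz12 to Eed was 0.69 with the offsets and 1.18 without. The level of a ratio depends on the length used: per kilobase of the longest transcript, the mean of Suz12 to Ezh2 was -0.53 in the knockout and that of Suz12 to Eed was -0.10 in the Smad7-labelled knockout. With 2 libraries a group no test was made of these ratios.

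**Figure D2:**
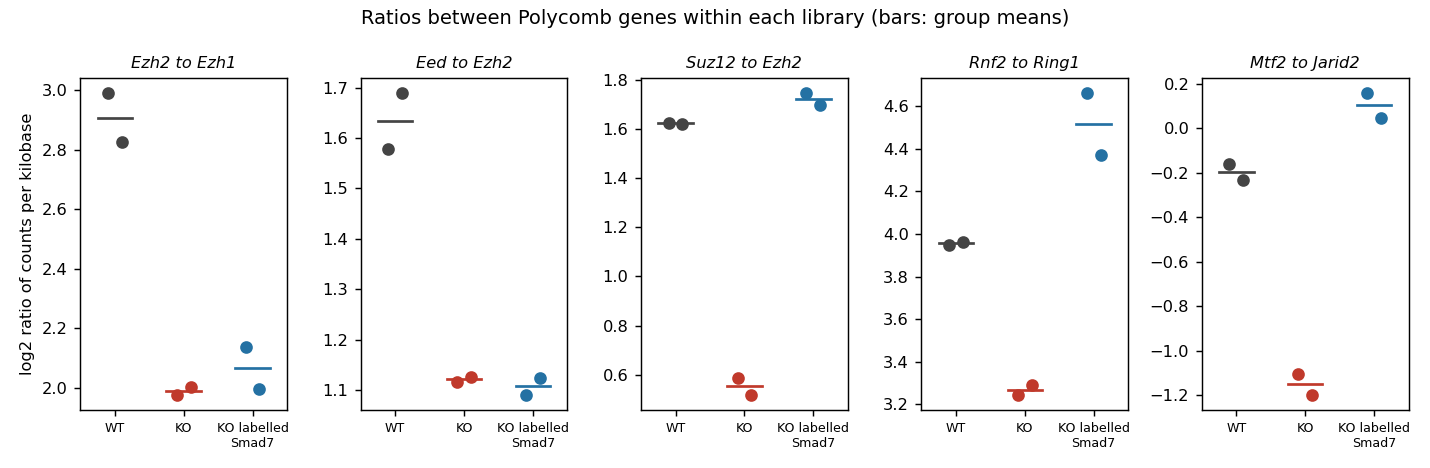
Log2 ratios of counts per kilobase of exon between pairs of Polycomb genes in each library (points), with group means (bars), for wild type (WT), knockout (KO) and the Smad7-labelled knockout. The knockout has the lowest Suz12 to Ezh2, Rnf2 to Ring1 and Mtf2 to Jarid2 ratios, and the wild type the highest Ezh2 to Ezh1 and Eed to Ezh2 ratios. With GC and length offsets the change in the knockout against wild type is 0.13 for Rnf2 to Ring1, in the opposite direction, and -0.09 for Mtf2 to Jarid2.

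Of the accessory subunits, Mtf2 fell in the knockout and the call for Jarid2 depended on the processing. Jarid2, a DNA-binding cofactor that lacks demethylase activity (chr13:44729474-44921643, plus strand), measured 668 and 648 CPM in wild type, 719 and 705 in knockout cells, and 541 and 551 in the Smad7-labelled knockout. These groups were separate, with the knockout highest. The rise of 0.12 ± 0.03 in the knockout (adjusted p = 2.2e-03) did not hold with RLE scaling (adjusted p = 0.135), with DESeq2 (0.084) or without wild-type replicate 2 (0.087), and its sign turned with GC and length offsets (-0.05). From the knockout to the Smad7-labelled knockout Jarid2 fell by 0.38 ± 0.04 (adjusted p = 6.1e-20), or by 0.58 with the offsets. Against wild type the log2 fold change was -0.27 (adjusted p = 8.1e-12), but 0.12 with scaling by library size and -0.63 with the offsets.

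Mtf2, a Polycomb-like protein that binds CpG-rich DNA (chr5:108065674-108109004, plus strand), measured 351 and 323 CPM in wild type, 196 and 180 in knockout cells, and 354 and 334 in the Smad7-labelled knockout. Both knockout libraries were low, and the other 2 groups overlapped. Mtf2 fell by 0.84 ± 0.04 in the knockout (adjusted p = 2.5e-36) and rose by 0.87 ± 0.04 in the Smad7-labelled knockout relative to the knockout (adjusted p = 1.4e-37). With GC and length offsets these values shrank to -0.14 and 0.03, and the second was no longer called (adjusted p = 0.338). Against wild type the difference was 0.03 ± 0.04 (adjusted p = 0.47). It turned negative without wild-type replicate 2 (-0.05), and with the offsets it was -0.10. It was called with scaling by library size (0.42, adjusted p = 5.9e-20) and with a filter of 1 CPM in 4 libraries (0.14, adjusted p = 9.2e-04). The log2 ratio of Mtf2 to Jarid2 per kilobase was -0.16 and -0.23 in wild type, -1.10 and -1.2 in knockout cells, and 0.16 and 0.05 in the Smad7-labelled knockout. Its change in the knockout was -0.95 in the fit without offsets and -0.09 with them. From the knockout to the Smad7-labelled knockout it was 0.61 with the offsets, less than without them, and in wild type the mean ratio was 0.08 per kilobase of the longest transcript.

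The catalytic RING proteins of PRC1 are encoded by paralogs of very unequal level. Rnf2 (chr1:151458004-151500955, minus strand) measured 218 and 209 CPM in wild type, 113 and 99.5 in knockout cells, and 149 and 148 in the Smad7-labelled knockout. The groups were separate, in the same order as for Suz12. Rnf2 fell by 1.00 ± 0.04 in the knockout (adjusted p = 9.3e-46), or by 0.42 with GC and length offsets. Relative to the knockout it was 0.48 ± 0.04 higher in the Smad7-labelled knockout (adjusted p = 2.4e-19), but this turned to -0.12 (adjusted p = 3.4e-03) with the offsets. Against wild type those libraries were lower under either fit, by -0.52 and -0.54 on the log2 scale.

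Ring1 (chr17:34020792-34024680, minus strand) was the member with the fewest reads, with raw counts of 188 and 188 in wild type, 184 and 152 in knockout cells, and 72 and 104 in the Smad7-labelled knockout. In normalised units these were 11.1 and 10.5, then 9.38 and 7.99, then 4.65 and 5.63 CPM. The groups were separate, though the knockout libraries lay close under wild type. The log2 fold change of -0.31 ± 0.12 in the knockout (adjusted p = 0.015) was not called with DESeq2 (adjusted p = 0.176), with scaling by library size (0.204), without wild-type replicate 1 (0.0874) or without knockout replicate 2 (0.25), and it was -0.55 with GC and length offsets. The difference of -0.75 ± 0.14 between the Smad7-labelled knockout and the knockout (adjusted p = 7.6e-07) was called under all 16 alternatives. The log2 ratio of Rnf2 to Ring1 per kilobase was 3.95 and 3.96 in wild type, 3.25 and 3.29 in knockout cells, and 4.66 and 4.37 in the Smad7-labelled knockout, so Rnf2 was the more abundant transcript in every library. The change of this ratio in the knockout was -0.69 without GC and length offsets and 0.13 with them, and from the knockout to the Smad7-labelled knockout it was 1.23 and 0.51.

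The 2 subunits of variant PRC1 differed in direction. Kdm2b (chr5:122870665-122989823, minus strand) measured 158 and 153 CPM in wild type, 186 and 184 in knockout cells, and 174 and 177 in the Smad7-labelled knockout. Those libraries lay between the other 2 groups, without overlap. Its log2 fold change was 0.25 ± 0.04 in the knockout (adjusted p = 7.3e-09), which became -0.0044 (adjusted p = 0.917) with GC and length offsets. The difference between the Smad7-labelled knockout and the knockout was -0.07 ± 0.04 (adjusted p = 0.080), with a 95% interval from -0.15 to 0.00. It was called in the same direction without wild-type replicate 1 (adjusted p = 0.0375), without wild-type replicate 2 (0.033) and with the replicate block (0.0448) and without a filter on low counts (0.0114), and in the opposite direction with scaling by library size (0.18, adjusted p = 1.9e-05). Against wild type Kdm2b was higher by 0.18 ± 0.04 (adjusted p = 3.1e-05), but -0.02 with the offsets.

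Pcgf6, the PCGF protein of the variant complex that works with MGA, MAX and L3MBTL2 at germline genes (chr19:47033617-47050906, minus strand), fell in steps as Eed did. It measured 94.9 and 95.4 CPM in wild type, 76.1 and 72.6 in knockout cells, and 46 and 44.1 in the Smad7-labelled knockout, with no overlap. The log2 fold changes were -0.36 ± 0.05 (adjusted p = 2.7e-11) and -0.72 ± 0.05 (adjusted p = 2.2e-26) for the 2 steps. Across both, Pcgf6 was 2.12-fold lower than in wild type.

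Between the Smad7-labelled knockout and the knockout, 9 of the 10 members passed the threshold, 3 higher (Suz12, Mtf2 and Rnf2) and 6 lower. The background was 74.6% of all tested genes called, 37.8% higher and 36.8% lower, and 86.3% of genes had separate libraries. Against wild type, 9 of the 10 passed, 2 higher (Ezh1 and Kdm2b) and 7 lower, with a background of 81.9% called, 43.1% higher and 38.8% lower. Separate libraries were seen for 9 members there, and for 89.9% of all genes. The member medians were -0.44 and -0.53, beside 0.04 and 0.09 over all genes. With scaling by library size the member medians of the 3 comparisons were -0.19, -0.19 and -0.14, while those of all genes were 0.17, 0.29 and 0.48. These comparisons share libraries with the one of knockout and wild type, so their values are not independent of it.

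**Figure D3:**
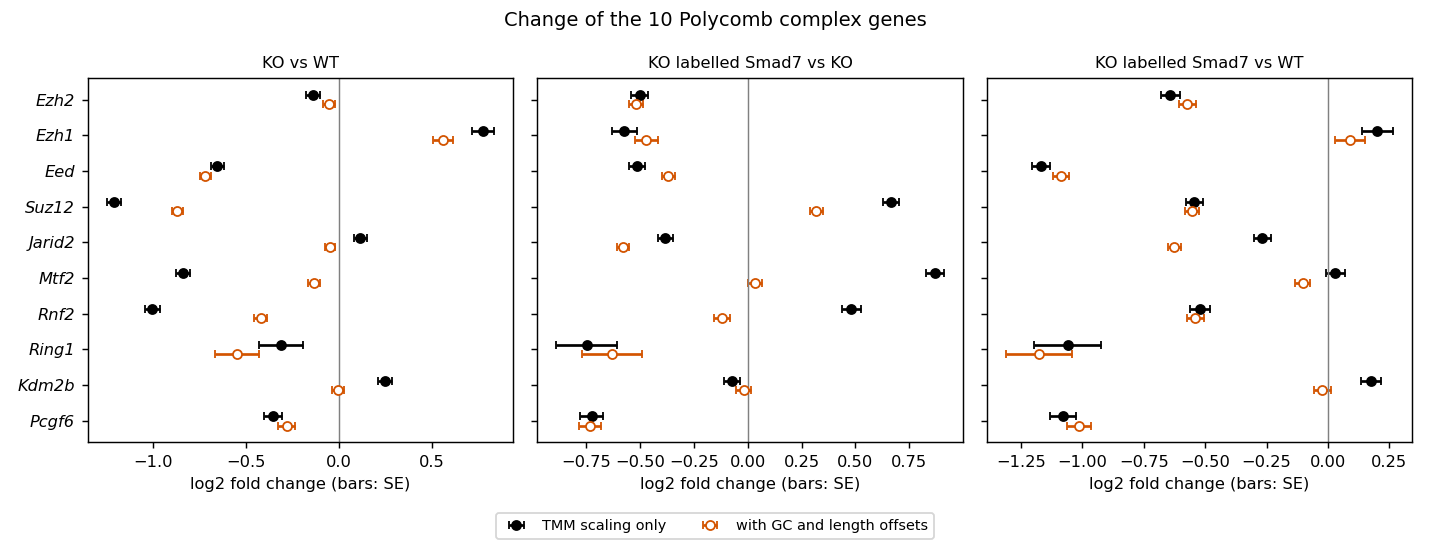
Log2 fold change of each member with its standard error in the 3 comparisons, with TMM scaling only (filled) and with offsets for GC content and length (open). The offsets move Mtf2 in the knockout from -0.84 to -0.14 and turn the sign of Rnf2 between the Smad7-labelled knockout and the knockout, while Eed, Pcgf6 and Ring1 are below 0 in all 3 comparisons under both fits.

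The order of the members by level per kilobase of all annotated exons also differed between groups. In wild type it was led by Eed and Suz12, at 116 and 115 CPM per kilobase with overlapping libraries, followed by Jarid2 (67.7), Mtf2 (59.1), Rnf2 (51.7), Ezh2 (37.5), Pcgf6 (18.9), Kdm2b (14.3), Ezh1 (5.0) and Ring1 (3.33). In the knockout Eed (73.9) and Jarid2 (73.3) led and overlapped, Suz12 followed at 49.9, and Ezh2 (34.0) and Mtf2 (33.0) overlapped. In the Smad7-labelled knockout the first 4 were Suz12 (79.2), Mtf2 (60.4), Jarid2 (56.2) and Eed (51.7), with no overlap between neighbours. Ring1 and Ezh1 had the lowest levels in each group. This order depends on the length used. Per kilobase of the longest transcript, an alternative added after the data were seen, Eed led in all 3 groups without overlap (215, 137 and 95.8 CPM per kilobase), Suz12 was the second in wild type and in the Smad7-labelled knockout (131 and 89.6), and Suz12 (56.4) lay under Ezh2 (81.4) in the knockout. Ezh1 and Ring1 were the lowest there too. The summed level of the 10 members was 2809 and 2737 CPM in wild type, 2121 and 2068 in knockout cells, and 2070 and 2044 in the Smad7-labelled knockout. This pattern depends on the scaling. As a share of all raw counts, the sum was 0.247% and 0.242%, then 0.206% and 0.202%, then 0.240% and 0.237%, in the same order of groups.

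The direction of several members went with the GC content of their transcripts. The 3 members of lowest GC content, Mtf2 (38.2%), Rnf2 (39.5%) and Suz12 (41.6%), were the 3 with the greatest falls in the knockout and the 3 that rose in the Smad7-labelled knockout relative to the knockout. The same trend ran through all genes. In the knockout the median log2 fold change was -0.63 over 660 genes of 38% to 40% GC, -0.39 over 1044 genes of 40% to 42%, and 0.20 over 1599 genes of at least 58%. Between the Smad7-labelled knockout and the knockout the medians of these bins were 0.87, 0.41 and -0.07. Between those libraries and wild type they were 0.10, 0.01 and 0.17, nearly flat. In these 3 comparisons 6, 6 and 7 of the 10 members lay within the interquartile range of the genes of their own GC bin. Suz12, Eed, Ring1 and Ezh1 lay outside it in the knockout, Ezh2, Eed, Pcgf6 and Ring1 lay outside in the second comparison, and Eed, Pcgf6 and Ring1 in the third.

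**Figure D4:**
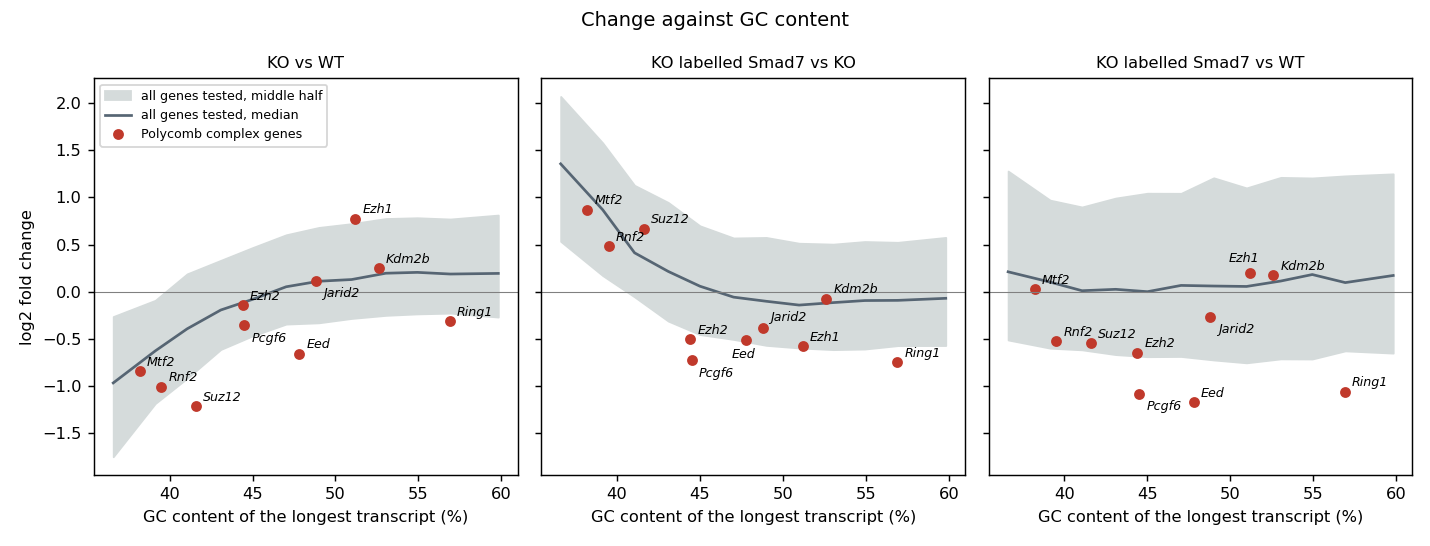
Log2 fold change of the 10 members (points) against the GC content of their longest transcript, with the median (line) and interquartile range (band) of all tested genes in bins of GC content. Mtf2 and Rnf2 sit inside the band in all 3 comparisons, while Eed and Ring1 sit below it in all 3.

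With offsets fitted to each library's trend in GC content and length, 7 members were called in the knockout, 1 higher (Ezh1) and 6 lower. The background was 67.3% of all genes, 32.8% higher and 34.6% lower. Between the Smad7-labelled knockout and the knockout 8 members were called, 1 higher (Suz12) and 7 lower, beside 73.2% of all genes, 36.8% higher and 36.4% lower. Against wild type the Smad7-labelled knockout had 8 members called, all lower, beside 81.5% of all genes, 42.1% higher and 39.4% lower, with Ezh1 at 0.09 (adjusted p = 0.171) and Kdm2b at -0.02 (adjusted p = 0.53) not called. Called in the same direction in the knockout with and without the offsets were Ezh1, Eed, Suz12, Mtf2, Rnf2, Ring1 and Pcgf6. Between the Smad7-labelled knockout and the knockout the offsets did not remove all of the trend. The median left there was 0.31 under 38% GC and 0.17 at 38% to 40%, the bin of Mtf2 and Rnf2, beside 0.03 over all genes. The part of GC content, RNA quality or library preparation in the trend was not tested.

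Other genes of the 2 complexes had profiles close to some members. Over the 6 libraries and 52 genes of the PRC1 and PRC2 lists, likeness was measured as the root mean square distance between log2 CPM profiles, each centred on its own mean, as a description with no test. Suz12 and Rnf2 were each other's nearest gene, at 0.10. Mtf2 was nearest to Mga (0.090), Ezh2 to Skp1a (0.028), Eed to Tfdp1 (0.055), Kdm2b to Cbx6 (0.028) and Jarid2 to Phc1 (0.085). Ring1 was nearest to Auts2 (0.077), Pcgf6 to Rbbp4 (0.069) and Ezh1 to Phc2 (0.19), the loosest of these matches. These profiles carry no GC and length offsets, and some matches depend on that. With the offsets, Suz12 and Rnf2 changed by 0.32 and -0.12 from the knockout to the Smad7-labelled knockout. Mtf2 and Mga changed by -0.14 and -0.64 in the knockout against wild type.

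The 8 other PRC2 subunits did not move in a single direction in the knockout, where 4 rose and 3 fell, with a median of 0.11 beside 0.02 over all genes. Epop, an accessory subunit that bridges PRC2 and elongin BC, measured 345 and 326 CPM in wild type, 521 and 519 in knockout cells, and 219 and 189 in the Smad7-labelled knockout. The groups were separate, and Epop rose in the knockout (log2 fold change 0.63 ± 0.04, adjusted p = 1.6e-19, and 0.41 with GC and length offsets) and was lower in the last libraries (-1.35 against the knockout, adjusted p = 7.3e-33). The histone-binding subunit Rbbp7 rose in the knockout (0.50, adjusted p = 2.8e-28), whereas its paralog Rbbp4 fell (-0.22, adjusted p = 9.8e-09). Aebp2, which marks the JARID2-containing form of PRC2, fell from 158 and 148 CPM to 109 and 99.3 (-0.56, adjusted p = 1.6e-24, and -0.14 with the offsets), and Lcor, whose locus also encodes the accessory subunit PALI1, fell by 0.97 (adjusted p = 3.0e-38).

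AU022751, listed by RefSeq as a synonym of the PRC2 inhibitor Ezhip, measured 0.354 and 0.503 CPM in wild type, 8.97 and 9.04 in knockout cells, and 8.52 and 8.28 in the Smad7-labelled knockout. It was thus near the detection limit in wild type and present in both knockout groups (log2 fold change 4.36 ± 0.24 in the knockout, adjusted p = 1.4e-37). AU022751 lies on chromosome X, as do Rbbp7, Scml2, Bcor, Bcorl1 and Kdm6a of the other lists. Of these 6 genes 5 rose in the knockout, and Kdm6a was not called (0.08, adjusted p = 0.067). Of all 631 tested genes of chromosome X, 428 rose and 67 fell, with a median of 0.87. None of the 10 members is on chromosome X, and the 48 autosomal genes of those lists had 13 rises and 24 falls with a median of -0.14. Of all 16324 tested autosomal genes, 5442 rose and 5595 fell in the knockout, with a median of 0.0046.

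Among the 35 other PRC1 subunits, 12 rose and 14 fell in the knockout, with a median of -0.03, beside 34.5% higher and 33.3% lower among all genes. Mga, the DNA-binding scaffold of the PCGF6 complex, measured 625 and 616 CPM in wild type, 323 and 320 in knockout cells, and 557 and 559 in the Smad7-labelled knockout, a profile of the same order as that of Suz12. It fell by 0.95 in the knockout (adjusted p = 4.0e-56) and was 0.80 higher in the Smad7-labelled knockout than in the knockout (adjusted p = 2.8e-47), a difference of 0.08 with GC and length offsets. L3mbtl2 of the same complex measured 275 and 281, then 226 and 227, then 121 and 126 CPM, the order seen for Pcgf6. Cbx7, the main chromodomain subunit of PRC1 in embryonic stem cells, was not called in any comparison (227, 224 and 221 CPM on average), although library-size scaling gave 0.12 (adjusted p = 2.2e-03) and GC and length offsets gave -0.30 (adjusted p = 3.8e-16) in the knockout.

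Subunits that define the other PRC1 forms also differed among themselves. Bmi1 (PCGF4) measured 11.7 and 11.9 CPM in wild type, 9.23 and 8.36 in knockout cells, and 20.7 and 18.0 in the Smad7-labelled knockout. Its fall in the knockout (-0.42, adjusted p = 6.5e-04) became 0.08 with GC and length offsets, while its rise in the last libraries reached 1.13 (adjusted p = 6.3e-20), or 0.62 with the offsets. Scml2 rose at each step, from 3.83 and 3.52 to 9.99 and 8.89 and then to 25.0 and 23.9 CPM. Cbx3, a heterochromatin protein also found in the PCGF6 complex, fell by 1.52 in the knockout (adjusted p = 5.1e-48), or by 0.86 with the offsets, but its processed pseudogenes could share reads with it, so its value is uncertain. The deubiquitinase Usp7 and the WD-repeat protein Wdr5 were lower in the Smad7-labelled knockout than in the knockout, by -1.03 and -1.34 on the log2 scale (adjusted p = 5.2e-60 and 4.0e-72). In that comparison 8 of the 35 rose and 18 fell, with a median of -0.16, beside 37.8% higher and 36.8% lower among all genes. With scaling by library size it was 15 and 14, with a median of 0.09 while the median of all genes was 0.29.

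**Figure D5:**
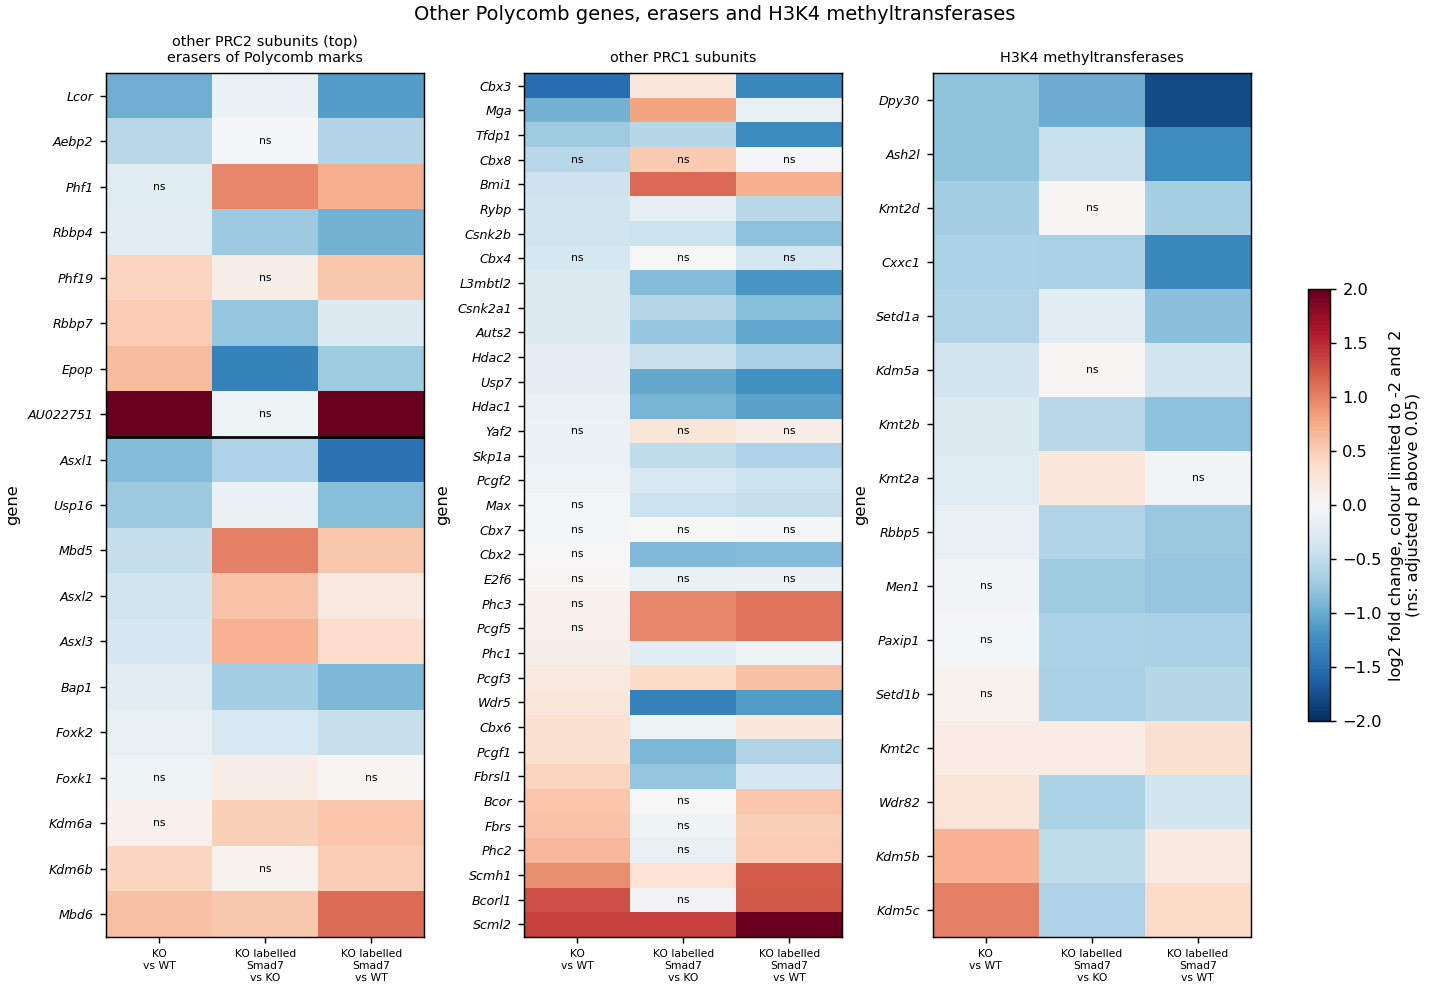
Log2 fold change (colour, limited to -2 and 2) of the other PRC2 subunits, the erasers of Polycomb marks, the other PRC1 subunits and the H3K4 methyltransferases in the 3 comparisons, with genes not past the threshold marked ns. Of the 8 other PRC2 subunits 4 rose in the knockout, beside 34.5% of all genes, with AU022751 the highest. The H3K4 list of 16 genes includes 3 Kdm5 demethylases. Of these 16 genes 12 fell between the Smad7-labelled knockout and the knockout, beside 36.8% of all genes. With scaling by library size 11 of them fell.

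The 11 genes listed as erasers of Polycomb marks encode H3K27 demethylases, H2A deubiquitinases and partner proteins that are not enzymes. In the knockout 2 of the 11 rose and 7 fell (median -0.22), beside 34.5% higher and 33.3% lower and a median of 0.02 among all genes. Asxl1, a cofactor of the H2A deubiquitinase BAP1, measured 298 and 295 CPM in wild type, 165 and 162 in knockout cells, and 106 and 107 in the Smad7-labelled knockout, falling by 0.86 at the first step (adjusted p = 5.0e-49). Bap1 itself fell by 0.22 (adjusted p = 6.2e-07), a call lost with scaling by library size (adjusted p = 0.0901), while the difference was -0.48 with GC and length offsets, and then by 0.68 (adjusted p = 7.3e-32). The H3K27 demethylase Kdm6b measured 74.7 and 64.7 CPM in wild type and rose by 0.43 in the knockout (adjusted p = 2.3e-10), or by 0.16 with the offsets. Its relative Kdm6a rose by 0.47 between the knockout and the Smad7-labelled knockout (adjusted p = 1.3e-23), or by 0.12 with the offsets. In that comparison 6 of the 11 rose and 4 fell, beside 37.8% and 36.8% of all genes, but with GC and length offsets 4 rose and 5 fell.

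The list of 16 H3K4 genes holds subunits of the H3K4 methyltransferase complexes, which counteract Polycomb repression, and 3 Kdm5 demethylases. In the knockout 4 of the 16 rose and 9 fell (median -0.21), beside 34.5% higher and 33.3% lower among all genes. Between the Smad7-labelled knockout and the knockout 2 rose and 12 fell (median -0.58), beside 37.8% and 36.8%. The common subunit Dpy30 measured 252 and 269 CPM in wild type, 144 and 153 in knockout cells, and 73.8 and 76.1 in the Smad7-labelled knockout, and fell at both steps (-0.81 and -0.99, adjusted p = 9.5e-44 and 1.9e-46, and -0.34 and -0.93 with GC and length offsets). The X-linked H3K4 demethylase Kdm5c, which is on the same list as an opposing enzyme, rose by 1.01 in the knockout (adjusted p = 2.5e-58).

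Of 74 developmental genes listed as known Polycomb targets in embryonic stem cells, 41 passed the filter on low counts and 4 had no count in any library. In the knockout 19 of the 41 rose and 7 fell, with a median of 0.43, beside 34.5% higher and 33.3% lower among all genes. With GC and length offsets 16 rose and 8 fell, with a median of 0.18. A gene of such low level can pass the filter through the group where it is high, so these counts do not describe all 74. Among the 21 with a mean of at least 1 CPM, 11 rose and 5 fell. That mean is over all libraries, so a gene can pass this cut too through the group where it is high. Of 10 tested Hox genes 6 rose in edgeR, all at low level, and the other 4 did not pass the threshold.

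Single target genes changed in both directions. Gata2, a haematopoietic transcription factor, measured 4.54 and 3.97 CPM in wild type, 15.2 and 15.6 in knockout cells, and 14.4 and 11.8 in the Smad7-labelled knockout (log2 fold change 1.86 in the knockout, adjusted p = 5.1e-29). Gata6 and Sox17, regulators of primitive endoderm that are also on the list of its markers, fell in the knockout, Gata6 from 9.85 and 11.2 CPM to 0.255 and 0.21 (adjusted p = 3.1e-44) and Sox17 from 3.24 and 2.40 to 0.255 and 0.158 (adjusted p = 3.3e-16). All 8 primitive endoderm markers fell in the knockout (median log2 fold change -3.02), beside 33.3% of all genes. Their summed level was 388 to 400 CPM in wild type, 205 to 215 in the knockout and 289 to 296 in the Smad7-labelled knockout. None was at 0, and the sum follows the most abundant markers. Against wild type all 8 were lower in the Smad7-labelled knockout (median -2.38), beside 38.8% of all genes. With scaling by library size 6 were lower and 2 higher there. In bulk RNA, fewer cells of such a type and less RNA per cell cannot be told apart. The summed level of 7 fibroblast markers was 284 to 287 CPM in wild type, 379 to 387 in the knockout and 397 to 417 in the Smad7-labelled knockout, with Twist2 at 0 in all groups, Col3a1 at 0 in both knockout groups and Postn at 0 in the knockout. Nearly all of that sum was Vim, which many cell types express (278 to 282, 373 to 381 and 388 to 408 CPM), while Col1a1 measured 1.00 and 1.57, then 0.765 and 0.894, then 2.45 and 1.95 CPM. The part of these cell types in the members' changes was not tested.

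Between the Smad7-labelled knockout and the knockout, 13 of the 41 target genes rose and 11 fell in edgeR (median 0.18), beside 37.8% and 36.8% of all genes, where DESeq2 called 13 in all. The 21 with a mean of at least 1 CPM had 4 rises and 9 falls (median -0.19), and the 20 under 1 CPM had 9 and 2. Gata6 rose to 1.87 and 1.57 CPM (adjusted p = 9.6e-10). The neural regulator Sox1 measured 18.5 and 17.2 CPM in wild type, 24.3 and 24 in knockout cells, and 8.58 and 9.68 in the Smad7-labelled knockout, a fall of 1.39 from the knockout (adjusted p = 6.8e-29). En2, a midbrain regulator, fell at both steps, from 16.0 and 14.2 to 8.21 and 7.63 and then to 2.32 and 2.43 CPM. Against wild type, 23 of the 41 were higher and 11 lower in the Smad7-labelled knockout, beside 43.1% and 38.8% of all genes. Among those of at least 1 CPM 10 were higher and 8 lower, and among those under 1 CPM 13 and 3. In both comparisons a gene can pass the filter, or the cut at a mean of 1 CPM, through the group where it is high. The part of the filter in the excess of rises under 1 CPM was not tested. No histone mark or protein was measured in these libraries.

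Exons of 6 members overlap other annotated genes, on the opposite strand except where stated. Rnf2 overlaps Trmt1l over 158 bases, Mtf2 overlaps Tmed5 over 395 and Eed overlaps E230029C05Rik over 261. Ezh2 overlaps Gm26625 over 174, Suz12 overlaps Gm26563 over 178, and Kdm2b overlaps 3 genes over 950 in all, of which Gm44574 is on the same strand. The labels do not state whether the counting used strand, and without it reads of such stretches cannot be assigned to either gene.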

How the data were processed

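The authors deposited raw read counts per gene symbol. STAR and featureCounts 1.6.3 and the builds mm10 and GRCm38 are named in the submitters' processing notes. The annotation release and strand setting: not given in the sources used here. Counts of 6 libraries were used, and 2 columns that matched no sample's labels were left out of every step, which leaves the lncSmad7-transfected group not analysed here.

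Groups were tested with the quasi-likelihood F-test of edgeR (edgeR 4.0.16, limma 3.58.1, R 4.3.3, robust, TMM factors, filterByExpr) over 17342 genes in 1 fit of 3 groups with 3 residual degrees of freedom and no replicate block. P-values were adjusted over these genes by the Benjamini-Hochberg method, and 0.05 was the threshold. CPM values use the TMM factors. The common biological coefficient of variation was 2.47%. The chi-square per degree of freedom between replicates was 1.57 for wild type, 1.72 for the knockout and 1.89 for the Smad7-labelled knockout, above sampling noise. The test was also run on simulated counts with few changed genes and no GC trend. Those settings differ from these data, so that run does not show how the test behaves here.

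Offsets for GC content and length were smooth fits per library (mgcv 1.9.3), centred so that TMM scaling was kept, with values for 97.8% of genes. Gene models came from GENCODE release M21 and promoters from RefSeq, matched by symbol for all 10 members. Other alternatives were RLE and library-size scaling, DESeq2 1.42.0, no filter, a minimum of 1 CPM in 4 libraries, the 4 compared libraries alone, a replicate block, glmTreat with a minimum fold of 1.2, and each replicate left out.

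Members and lists were chosen with earlier results of these data known. Named genes were all 10 members, 14 listed genes, and, in each comparison, up to 3 called genes with the largest rise and fall from the other lists with a mean of at least 1 CPM (1 each for H3K4 methyltransferases). Only some of them are described.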

Additional observations from a re-analysis of the deposited data

How the results depend on the processing

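Scaling, GC content and depth limit these results. With 2 libraries a group each gene's own spread rests on 3 residual degrees of freedom. The edgeR fit draws it towards a trend over all genes tested, so the p-values rest on that shared spread too. Ring1, with 72 to 188 reads a library, has the widest error of the members. Scaling by library size moved the median of all genes from 0.02, 0.04 and 0.09 to 0.17, 0.29 and 0.48 (log2; knockout against wild type, Smad7-labelled knockout against knockout, and against wild type) and the share of higher genes among calls from 50.9%, 50.7% and 52.6% to 61.7%, 65.7% and 68.3%. The causes of the changes below were not tested.

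Of the recomputed counts of calls and log2 ratios of paralogs, 331 stayed near the main value and 11 moved, as given next. A count was taken as moved if it changed by more than 1.5 times. A ratio was taken as moved if it changed by at least the SD of its 2 libraries. In the knockout, a minimum fold of 1.2 gave 6 members, 12 other PRC1 subunits and 8 genes of the H3K4 list in place of 10, 26 and 13. For Polycomb target genes the filter of at least 1 CPM in 4 libraries, which tests fewer genes, gave 13, 12 and 14 calls in place of 26, 24 and 34 in the 3 comparisons, and DESeq2 gave 13 in the second. With the longest transcript as length, the log2 ratio of Ezh2 to Ezh1 was 3.35, 2.43 and 2.5 in the 3 groups in place of 2.91, 1.99 and 2.07, and that of Rnf2 to Ring1 in wild type was 3.98. By that length, in checks added after the data were seen, signs turned for Suz12 to Ezh2 in the knockout (-0.53), Suz12 to Eed in the Smad7-labelled knockout (-0.096) and Mtf2 to Jarid2 in wild type (0.075). With GC and length offsets, also added later for ratios, the change turned for Rnf2 to Ring1 in the knockout (0.13) and, between the Smad7-labelled knockout and the knockout, for Ezh2 to Ezh1 (-0.048) and Eed to Ezh2 (0.15). Leaving out 1 replicate gave 9 to 10, 9 to 10 and 8 to 9 members called.

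Signs turned as follows in the knockout against wild type. Library-size scaling gave 0.0029 for Ezh2, 0.12 for Cbx7 and 0.040 for Pcgf2. GC and length offsets gave -0.049 for Jarid2, -0.0044 for Kdm2b and 0.082 for Bmi1. With 1 replicate left out, Cbx7 ran from -0.052 (wild-type replicate 2) to 0.0087 (wild-type replicate 1), with 0.0081 without knockout replicate 1. In the Smad7-labelled knockout against the knockout, library-size scaling gave 0.18 for Kdm2b, 0.23 for Cbx7, 0.086 for Rybp and 0.22 for Aebp2, and the 1 CPM filter gave 0.030, 0.087 and 0.079 for Kdm2b, Cbx7 and Aebp2. The offsets gave -0.12 for Rnf2, -0.063 for Kdm6b, -0.16 for Asxl2 and -0.19 for Kmt2a. With 1 replicate left out, Cbx7 ran from -0.064 to 0.014 (without replicate 2 and 1 of the Smad7-labelled knockout), Aebp2 from -0.11 to 0.023 and Kdm6b from -0.037 to 0.13 (knockout replicates). Against wild type, library-size scaling gave 0.12 for Jarid2, 0.36 for Cbx7 and 0.12 for Rbbp7, and the 1 CPM filter gave 0.072 for Cbx7. Mtf2 was -0.018 with RLE, -0.021 with DESeq2, -0.10 with the offsets, -0.048 without wild-type replicate 2, -0.0072 without replicate 1 of the Smad7-labelled knockout and 0.081 without its replicate 2. Kdm2b was -0.023 with the offsets, and Cbx7 ran from -0.088 (without wild-type replicate 2) to 0.0075 (without replicate 1 of the Smad7-labelled knockout).

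The replicate numbers did not pair the libraries: the correlation of replicate differences was -0.000125 between wild type and knockout, 0.00409 between wild type and the Smad7-labelled knockout, and 0.0271 between the 2 knockout groups. With the replicate block 10, 10 and 9 members were called. The block with GC and length offsets gave -0.049 for Jarid2, -0.0044 for Kdm2b and 0.080 for Bmi1 in the first comparison, -0.12 for Rnf2, -0.058 for Kdm6b, -0.16 for Asxl2 and -0.19 for Kmt2a in the second, and -0.10 for Mtf2 and -0.023 for Kdm2b in the third.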
